A study of Rattus norvegicus with 45 samples.

Results

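The 44 genes studied here encode neuronal adhesion molecules, among them neurexins, neuroligins, teneurins, contactins, IgLON proteins and large transmembrane receptors, and were followed in the medial preoptic area of rat pups. They were taken from a list of names that was chosen with earlier results of these data known. Names were kept where present in the count tables of both sexes, which held for all 44 of 44, out of 40643 gene identifiers. For 43 members the spelling was exact, and Lrrtm1 is written LRRTM1 in the tables. All 44 passed the filter on low counts in both sexes, among 18354 genes tested in females and 18426 in males. The list is named for long genes, and the length of the genes was not measured here.

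Gene counts came from 3' Tag-seq, which reads 1 short fragment close to a transcript's 3' end, in 45 libraries of pups on postnatal day 10. Pregnant dams were dosed from gestation day 8 to birth with bisphenol A (BPA) at 50 µg/kg (BPA50, 6 females and 5 males), with BPA, bisphenol S and bisphenol F mixed in equal parts at 50 µg/kg in total (mix50, 6 and 6) or at 150 µg/kg in total (mix150, 5 females and 6 males), or with corn oil as control (5 and 6). Each of the 3 bisphenols has its phenol rings joined by a bridge, which is isopropylidene in BPA, sulfonyl in bisphenol S and methylene in bisphenol F. At mix150 the BPA component equals the 50 µg/kg of BPA50, and at mix50 the total bisphenol does. The labels name neither the strain nor the route of dosing, and both count tables are marked as having outlying libraries removed. Litters were taken from the numbers in the library names, which give 24 litters, 21 of them with a pup of each sex. Dams were assigned in cage-pairs, and which litters shared a cage is not given, so the p-values treat litters as independent.

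Synaptic adhesion molecules bridge the cleft between axon and target. Presynaptic neurexins bind postsynaptic neuroligins and leucine-rich repeat proteins (Lrrtm), and teneurins bind latrophilins across the cleft. Receptor phosphatases such as Ptprd also lie on the presynaptic side. Contactins, IgLONs and L1 family proteins carry immunoglobulin domains that guide axon growth, fasciculation and the assembly of nodes of Ranvier. The medial preoptic area of the hypothalamus controls parental and male sexual behaviour and is shaped by gonadal hormones around birth.

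Female libraries held 4397460 to 7223180 counts and male libraries 4747461 to 6740045 counts. Cytosolic ribosomal protein genes (79 genes) took 2.53% to 3.05% of the counts in females and 2.55% to 2.86% in males, and the 13 mitochondrial-encoded protein genes took 2.20% to 2.67% and 2.12% to 3.07%. These shares stand here for the make-up and quality of a library. Of 9 preoptic area markers, 5 passed the filter on low counts, and the 9 summed to between 52.9 and 176 counts-per-million (CPM), while 8 of 8 markers of the neighbouring striatum passed and summed to between 443 and 1918 CPM. A level in bulk tissue does not tell fewer cells of a type apart from less RNA per cell. CPM was computed on total counts scaled by the trimmed mean of M-values (TMM), and since a tag counts a transcript once, CPM is not divided by length. Differences are in log2 units from edgeR's quasi-likelihood test with their standard error, and a gene was called at an adjusted p (Benjamini-Hochberg over all genes tested) under 0.05.

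The members together took 1.71% to 2.43% of the counts in females and 1.88% to 2.44% in males. Levels differed widely between members, and genes are set side by side here as transcript tags. Lsamp, an IgLON of limbic circuits, was highest with a mean of 2762 CPM over the 45 libraries, and Opcml was the lowest IgLON with 348 CPM. Nrxn3 had 1856 CPM and Ptprs 269 CPM at the ends of the presynaptic group, and Nlgn1 had 824 CPM and Lrrtm2 13.4 CPM at the ends of the postsynaptic group. Teneurins lay between 1242 CPM for Tenm2 and 321 CPM for Tenm1, and contactins between 749.9 CPM for Cntn5 and 29.7 CPM for Cntn2, the axonal contactin of myelinated fibres. Cntnap2, the juxtaparanodal partner of Cntn2, had 1159 CPM, against 12.4 CPM for Cntnap1, the paranodal partner of Cntn1. Ncam1 had 1366 CPM and Cadm3 119 CPM in the group of NCAM, CADM and DSCAM proteins. Nrcam had 309.8 CPM and Nfasc, a protein of nodes, 103 CPM in the L1 family. Csmd1 had 877 CPM and Csmd2 231 CPM among the large receptors. Kirrel3 had 553 CPM, and its relative Kirrel2 only 1.64 CPM, which is 3 to 21 counts in a library. Between libraries of 1 group, the biological coefficient of variation was lowest for Ptprs at 7.04% in males and highest for Cntn2 at 33.7% in females.

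In females, most adhesion genes lay below the oil level after each bisphenol exposure, and none passed the adjusted threshold. After BPA50, 41 of 44 members had a level below oil, with a median log2 difference of -0.089, against -0.00065 over all genes tested. After mix50 it was 41 of 44 with a median of -0.15, against 0.0059 over all genes, and after mix150 37 of 44 with a median of -0.077, against 0.0020. The 3 comparisons share the same 5 oil libraries. At the adjusted threshold 0 of 44 members and 0% of all genes were called in each. At an unadjusted p under 0.05 there were 3 members, all lower, after BPA50, where 3.63% of all genes reached it. There were 17 members after mix50, 16 lower and 1 higher, where 4.85% of all genes reached it, and 1 lower member after mix150, against 3.07%. DESeq2 and limma voom also called 0 members in each of the 3. Without mix50 replicate 6, mix50 had 8 members at that p and a median of -0.11, and without oil replicate 5 the mix150 median was -0.049.

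**Figure D1:**
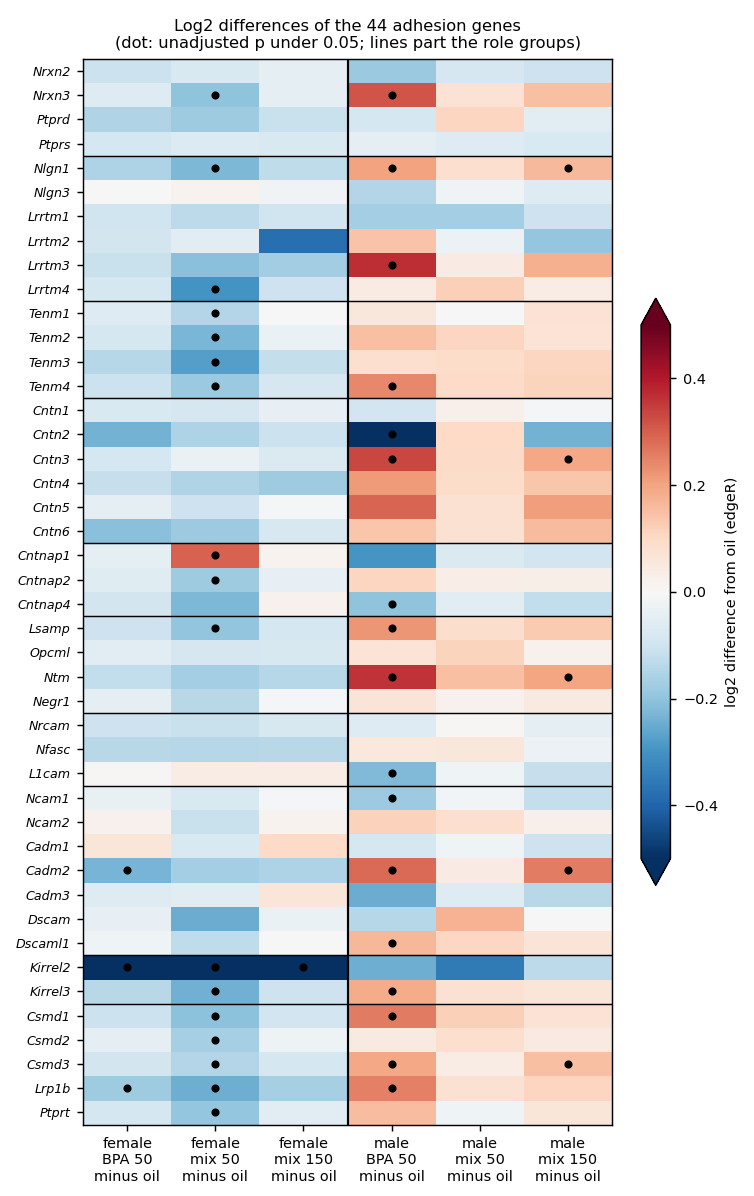
Heat map of the log2 difference from oil of each of the 44 members (rows, by role) in 6 comparisons (columns, females left, males right), with colour cut at 0.5 in either direction and a dot where the unadjusted p was under 0.05. Female columns are mostly blue, with 41, 41 and 37 of 44 members below oil, and the male columns mostly red, with 28, 31 and 26 of 44 above oil.

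Tenm3, a teneurin that matches axons to targets, had the lowest p after mix50 in females. Its levels in mix50 females had a lowest, median and highest value of 704, 946 and 1012 CPM, against 1198, 1128, 1035, 1139 and 1063 CPM in the 5 oil females. The groups did not overlap. The log2 difference was -0.28 ± 0.071 (0.826-fold, edgeR adjusted p = 0.971), which is not a call. All 4 teneurins had an unadjusted p under 0.05 there, with a median log2 difference of -0.21. So did all 5 large receptors, with a median of -0.19. Among them Ptprt, a homophilic receptor phosphatase, had 346, 403 and 432 CPM as lowest, median and highest value in mix50 females, against 446, 509, 447, 455 and 414 CPM in oil females, with 5 of 6 mix50 libraries below every oil library (-0.19 ± 0.062, edgeR adjusted p = 0.971). The teneurins and the large receptors were singled out of 10 role groups after their values were seen. Without mix50 replicate 6 only 8 members of the whole list were at that p, so not all of these genes stayed. The Tenm3 difference was then -0.21.

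Lrp1b, a large endocytic receptor of the LDL receptor family, was among the 3 members with the lowest p after each exposure in females. Its lowest, median and highest levels were 378, 397 and 413 CPM after BPA50 and 319, 359 and 473 CPM after mix50. The 5 mix150 females had 444, 399, 440.4, 323 and 395 CPM, against 473, 431, 434, 466 and 443 CPM in the oil females. All 6 BPA50 libraries lay below every oil library, while the mixture groups overlapped with oil. The log2 differences were -0.18 ± 0.085, -0.24 ± 0.085 and -0.17 ± 0.089 in that order of exposure, none with an edgeR adjusted p under 0.971. Without mix150 replicate 4 the mix150 difference was -0.098.

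Kirrel2, a nephrin-like protein of olfactory axon sorting, had the largest differences, at very low counts. Its levels were 0.652, 0.997 and 2.01 CPM as lowest, median and highest value in BPA50 females, and 1.69, 0.973, 1.38, 1.11 and 0.662 CPM in the mix150 females, against 3.32, 2.29, 2.62, 2.10 and 2.44 CPM in the oil females. Neither exposed group overlapped with oil. The log2 difference was -1.15 ± 0.32 after BPA50 (0.450-fold) and -1.09 ± 0.34 after mix150 (0.470-fold), both with an edgeR adjusted p of 1. The highest of these counts in exposed females was 10, against 12 to 18 counts in oil females. In mix50 females Kirrel2 reached 3.03 CPM and overlapped with oil. The filter on low counts asks for about 10 counts in at least 5 libraries. Too few exposed females reached that level, so Kirrel2 was tested in females only because its oil libraries were high. Its differences and the lack of overlap are therefore partly set by the filter and carry no weight as support.

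The other lowest-p members in females were Cadm2, a synaptic cell adhesion molecule of the SynCAM family, and Nfasc. Cadm2 had 732, 797 and 979 CPM as lowest, median and highest value after BPA50, against 896, 763, 1192, 1079 and 922 CPM in oil, overlapping groups with a log2 difference of -0.23 ± 0.11, or -0.15 without oil replicate 3. Nfasc differed by -0.14 ± 0.075 after mix150, with 3 of 5 libraries below every oil library. Both had an edgeR adjusted p of 1. The 1 member on the higher side at an unadjusted p under 0.05 was Cntnap1 after mix50, named after its values were seen.

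**Figure D2:**
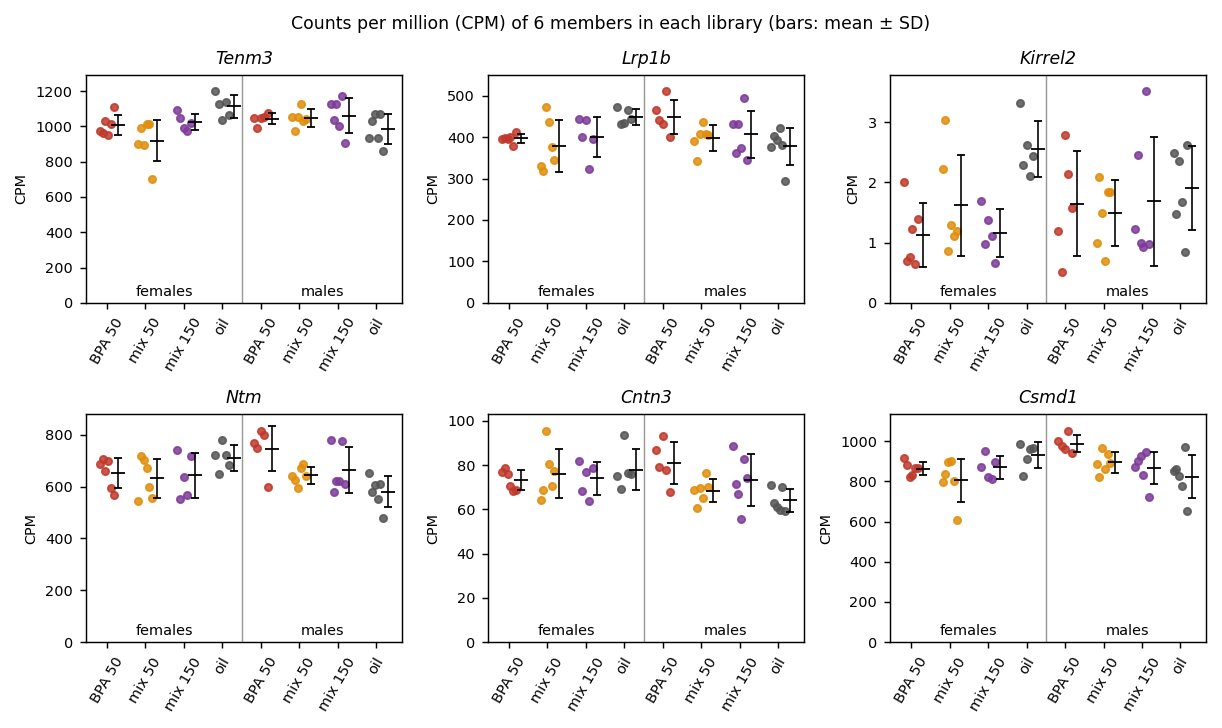
CPM of Tenm3, Lrp1b, Kirrel2, Ntm, Cntn3 and Csmd1 in each library (points) by exposure group, females left and males right of the line, with mean and SD beside the points and the vertical axis from 0. Oil females lie above mix50 females for Tenm3 and above BPA50 and mix150 females for Kirrel2, and BPA50 males lie high for Ntm. Kirrel2 passed the filter on low counts in females only through the oil libraries.

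In males more members lay above oil than below it, and none passed the adjusted threshold. After BPA50, 28 of 44 members were above oil with a median log2 difference of 0.078, against 0.00023 over all genes. After mix50 it was 31 of 44 with a median of 0.065, and after mix150 26 of 44 with a median of 0.041, against 0.0023 over all genes in both. At the adjusted threshold 0 of 44 members and 0% of all genes were called in each of the 3. At an unadjusted p under 0.05 there were 13 higher and 4 lower members after BPA50, where 11.3% of all genes reached it, 0 after mix50 against 3.46%, and 5 higher members after mix150 against 4.09%. DESeq2 and limma voom also called 0 members in each. The 3 comparisons share the same 6 oil libraries, among them replicate 6, whose adhesion gene level was the lowest of all males. Without that library the counts were 13, 0 and 0, with medians of 0.052, 0.023 and 0.0041, and 23 of 44 members above oil after mix150. Without mix150 replicate 6 instead, mix150 had 8 members at that p and a median of 0.077. Without both libraries the counts were 14, 0 and 1, with medians of 0.052, 0.023 and 0.047.

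Ntm, the IgLON neurotrimin, had the lowest p after BPA50 and after mix50 in males. The 5 BPA50 males had 770.0, 750.3, 815, 798 and 598 CPM, against a lowest, median and highest value of 479.5, 593 and 653 CPM in oil males. One BPA50 library, replicate 5, lay within the oil range and 4 above it. The log2 difference was 0.36 ± 0.086 (1.29-fold, edgeR adjusted p = 0.324). Striatum markers summed to 887 CPM in BPA50 replicate 5, against 1327 to 1918 CPM in the other BPA50 males. Oil replicate 1, the highest oil male for Ntm, had 1538 CPM of them, the most in its group. The part of the striatum in this difference was not tested beyond the fits with covariates given below. Those are given for the whole list and not for Ntm alone. After mix50 Ntm had 595, 642 and 687 CPM as lowest, median and highest value and a difference of 0.15 ± 0.082, and after mix150 580.3, 622 and 780.2 CPM and 0.20 ± 0.082, with overlap in both.

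Cntn3, a contactin, and Csmd1, a complement-regulating receptor with CUB and sushi domains, came next after BPA50. Cntn3 had 86.9, 79.2, 93.1, 77.8 and 67.8 CPM in BPA50 males, against 59.2, 62.1 and 71.3 CPM as lowest, median and highest value in oil males, with 4 of 5 above the oil range (0.34 ± 0.093). Csmd1 had 1002, 975, 960.0, 1052 and 943 CPM, against 654, 839 and 972 CPM in oil, with 3 of 5 above the oil range (0.26 ± 0.076). The edgeR adjusted p was 0.327 for both. For Cntn3 too, the BPA50 library within the oil range was replicate 5, and the highest oil library was replicate 1. The 4 lower members after BPA50 at an unadjusted p under 0.05 were Cntn2, Cntnap4, L1cam and Ncam1, named after their values were seen.

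After mix150 in males, Cadm2 (0.26 ± 0.10), Ntm and Csmd3 (0.15 ± 0.066) had the lowest p, each with an edgeR adjusted p of 0.992. Cadm2 had 754, 924 and 1167 CPM as lowest, median and highest value in mix150 males, against 652, 789 and 1052 CPM in oil males, and the groups overlapped. After mix50, Lrrtm1 (-0.17 ± 0.099) and Csmd1 (0.12 ± 0.073) followed Ntm, with an edgeR adjusted p of 1 for all 3. Without oil replicate 6 the Csmd1 difference after mix50 was 0.059, and without mix50 replicate 3 that of Lrrtm1 was -0.28.

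Between the exposures, 6 comparisons were made, 3 in each sex, and 0 of 44 members and 0% of all genes were called in any. At equal total dose, mix50 against BPA50, the members had a median log2 difference of -0.057 in females and -0.045 in males, with 1 member at an unadjusted p under 0.05 in females (4.21% of all genes) and 10 in males, 3 higher and 7 lower (12.4%). Without mix50 replicate 6 the female median was -0.012, and with both library shares as covariates the male median was 0.017, on the other side of 0. Cntnap1 had the lowest p in females, with 12.5, 13.9 and 15.6 CPM as lowest, median and highest value after mix50, against 9.00, 10.5 and 14.3 CPM after BPA50 (0.34, 95% interval 0.075 to 0.61, edgeR adjusted p = 1). L1cam, a receptor of axon growth, had it in males, with 107, 116 and 127 CPM after mix50, against 98.9, 101, 89.5, 98.4 and 117 CPM in the BPA50 males (0.20, interval 0.056 to 0.34, edgeR adjusted p = 0.342).

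At equal BPA dose, mix150 against BPA50, the medians were 0.025 in females and -0.029 in males. The female median was 0.0011 without mix150 replicate 2, and the male median -0.0063 without mix150 replicate 6. Here 0 members in females (2.27% of all genes) and 2 lower members in males (4.3%) had an unadjusted p under 0.05. Lrrtm2 came first in females (-0.29, interval -0.72 to 0.14, and -0.16 without mix150 replicate 4) and Csmd1 in males (-0.19, interval -0.34 to -0.030). Between the mixture doses, mix150 against mix50, the median was 0.088 in females with 6 higher members at that p (4.72%), and -0.018 in males with 0 (2.82%). Without mix50 replicate 6 the female median was 0.042, and without mix150 replicate 6 the male median was 0.016, on the other side of 0. Tenm2 came first in females (0.20, interval 0.027 to 0.37, and 0.13 without mix50 replicate 6) and Cadm2 in males (0.21, interval -0.0031 to 0.43). Intervals of this width leave room for differences of the size seen against oil.

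The difference between the sexes was tested directly, as the female minus the male effect of each exposure. No member and 0% of all genes passed the adjusted threshold for BPA50, mix50 or mix150. At an unadjusted p under 0.05, BPA50 had 1 higher and 15 lower members (7.11% of all genes), mix50 14 lower (4.78%) and mix150 8 lower (3.79%), with medians of -0.18, -0.20 and -0.099. These contrasts share the same oil libraries of both sexes. Among them, female replicate 1 had the highest adhesion gene level of its sex (0.13) and male replicate 6 the lowest of its sex (-0.25). Mix50 also holds the lowest female library, replicate 6 (-0.29). No library was left out in these fits. Ntm under BPA50 (-0.48 ± 0.12, edgeR adjusted p = 0.532) and Tenm3 under mix50 (-0.37 ± 0.095, edgeR adjusted p = 0.954) had the lowest p, named after their values were seen. Over all exposures, 34 of 44 members were lower in females, with 0 called, where 0.0946% of all genes were called for sex. A random block for the litter (limma, consensus correlation 0.110) left the count of members at 0 in these comparisons.

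The level of the whole list in each library was summarised as the median over members of log2 CPM centred on the mean of the sex. In females it ran from -0.030 to 0.080 after BPA50, from -0.29 to 0.054 after mix50 and from -0.051 to 0.074 after mix150, against 0.049 to 0.13 in oil. The oil females all lay above 0 and overlapped with the highest libraries of each exposure. In males it ran from 0.0062 to 0.078 after BPA50, from -0.019 to 0.041 after mix50 and from -0.16 to 0.083 after mix150, against -0.25 to 0.068 in oil.

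The lowest levels were in 3 libraries that also lay at the ends of other measures. Mix50 female replicate 6 (-0.29) had the highest ribosomal share of its sex, 3.05%, the highest summed astrocyte markers, 971 CPM over 7 markers, and the lowest summed neuron markers, 3030 CPM over 6 markers. Oil male replicate 6 (-0.25) had the highest mitochondrial share of its sex, 3.07%. Mix150 male replicate 6 (-0.16) had the highest ribosomal share of its group, 2.80%.

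**Figure D3:**
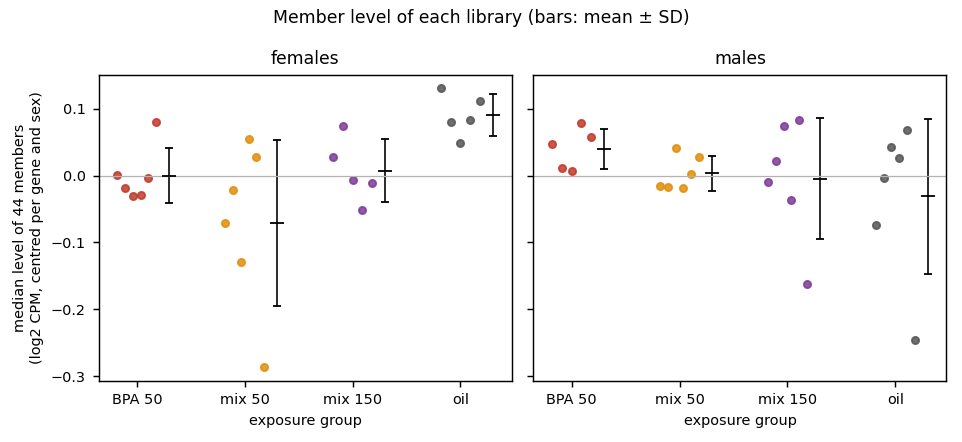
Member level of each library (points, log2 units centred per gene within sex) by exposure group, with mean and SD beside the points, females left and males right. Oil females lie between 0.049 and 0.13, and 1 low library stands out in each of mix50 females (-0.29), mix150 males (-0.16) and oil males (-0.25).

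The mean ribosomal share in females was 2.76% ± 0.09 after BPA50 (SD, n = 6), 2.76% ± 0.16 after mix50 (n = 6) and 2.72% ± 0.08 after mix150 (n = 5), against 2.61% ± 0.08 in oil females (n = 5). The exact two-sided permutation test gave p = 0.0260, 0.0563 and 0.103 for these 3, and 0.312, 0.318 and 0.318 after adjustment over the 12 share tests, so none passed. In males the means were 2.68%, 2.70% and 2.65%, against 2.72% in oil, with adjusted exact permutation p of 0.839, 0.840 and 0.318. The mitochondrial share was 2.27% ± 0.15 in BPA50 males (n = 5), against 2.49% ± 0.30 in oil males (n = 6), with an exact permutation p of 0.134, and 0.320 when adjusted. Summed striatum markers (8 of 8 above oil after BPA50 in males) ran from 887 to 1918 CPM in BPA50 males, against 551 to 1538 CPM in oil males. Beside mix50 in females, neuron markers summed to 3030 to 3541 CPM, against 3088 to 3543 CPM in oil females, with 1 of 6 above oil. Pericyte and fibroblast markers summed to 115 to 472 CPM, against 205 to 302 CPM in oil females, with 6 of 7 above oil. Astrocyte markers summed to 798 to 971 CPM, against 808 to 947 CPM in oil females, with 4 of 7 above oil. The part of these markers in the differences of the adhesion genes was not tested beyond the fits with covariates that follow.

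With the ribosomal share as a covariate, the female medians moved toward 0. They became -0.015 after BPA50, -0.065 after mix50 and -0.012 after mix150, with 1, 3 and 1 members at an unadjusted p under 0.05, and 27 and 24 of 44 members below oil after BPA50 and mix150. The mitochondrial share as a covariate left them at -0.093, -0.14 and -0.076. With both shares, the medians were -0.014, -0.063 and -0.0079. The fits with the ribosomal share rest on the slopes of the members on it, whose median shrank without mix50 replicate 6, as given below. No covariate fit was run without that library, so how much of the female shift goes with the share was not settled. In males, both shares gave 0.0083 after BPA50 with 10 members at that p, 5 higher and 5 lower, 0.052 after mix50 with 6 and -0.018 after mix150 with 5. With the striatum markers as a covariate, BPA50 in males had a median of 0.11 with 16 higher and 1 lower members at that p, and mix50 in females -0.15 with 24 lower and 1 higher. The share of all genes at that p in the covariate fits is not given here. Their counts are therefore not read as a result about the members.

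Members were tested within each sex for a slope on each share, adjusted for exposure group, given as the log2 change per SD of the log2 share. In females, Lrrtm4 fell with the ribosomal share, the 1 member called of 44, where 0.627% of all genes were called. Lrrtm4 is a postsynaptic leucine-rich repeat protein that binds neurexins and heparan sulfate. Its slope was -0.21 ± 0.034 (edgeR adjusted p = 0.0105), and without mix50 replicate 6 it was -0.14 with an adjusted p of 0.218, no longer called. That library held 322 CPM of Lrrtm4, the lowest of all, against a median of 523 CPM in mix50 females and of 628 CPM in oil females. Of 44 members, 40 had a negative slope with a median of -0.059, and 17 negative slopes had an unadjusted p under 0.05, which 12.4% of all genes reached in either direction. Tenm3 (-0.098 ± 0.024, edgeR adjusted p = 0.0525) and Ptprd, a presynaptic receptor phosphatase (-0.11 ± 0.035, adjusted p = 0.147), followed. Without mix50 replicate 6 these slopes were -0.047 and -0.072, and the median over members was -0.019 with 7 negative slopes at that p. The lowest-p positive slopes, of Cntn5, Lrrtm3 and Cntn3, were between 0.0028 and 0.011. With single libraries left out they ranged from -0.011 to 0.071, from -0.031 to 0.030 and from -0.014 to 0.018, so their sign is not settled.

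In males, 0 of 44 members and 0% of all genes were called on the ribosomal share. The slopes were negative for 34 of 44 members, with a median of -0.041 and 16 members at an unadjusted p under 0.05, which 14.5% of all genes reached. Ptprd (-0.15 ± 0.036), Cntn4 (-0.12 ± 0.031) and Lrrtm4 (-0.16 ± 0.046) had the lowest p, with edgeR adjusted p of 0.131 to 0.147. The same 34 members were negative in both sexes, and 4 were positive in both. The positive slopes with the lowest p were of Tenm1 (0.068 ± 0.034), Cntn5 (0.074 ± 0.064) and Lrrtm3 (0.030 ± 0.050), which were 0.039, 0.028 and 0.013 without mix50 replicate 3. Without oil replicate 6 and mix150 replicate 6 the median over members was -0.022.

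The mitochondrial share split the members in males. Of 44, 9 fell and 1 rose with it, where 7.16% of all genes were called, and 17 negative and 6 positive slopes had an unadjusted p under 0.05, against 23.3% of all genes in either direction. Nrxn3, the presynaptic neurexin, fell by 0.14 ± 0.028 per SD (edgeR adjusted p = 0.0031). The others that fell were Ptprt (-0.095 ± 0.022, adjusted p = 0.0104), Tenm4 (-0.096 ± 0.023, adjusted p = 0.0121), Tenm2, Tenm1, Lrp1b, Dscaml1, Cntn5 and Ntm, with slopes of -0.087 to -0.19. Nlgn3, a postsynaptic neuroligin, rose by 0.083 ± 0.023 (adjusted p = 0.0292). With a single library left out its slope was 0.073 to 0.092, and the call was lost in 7 of 23 such fits. The call was lost in 0 of them for Nrxn3 and in 1 each for Ptprt and Tenm4. L1cam (0.067 ± 0.022) and Cntn1 (0.073 ± 0.024) had adjusted p of 0.0642 and 0.0666. Nrxn3 levels in males were 2068, 2101, 2117, 2266 and 1833 CPM after BPA50, and as lowest, median and highest value 1493, 1731 and 2090.0 CPM after mix50 and 1553, 1808 and 2213 CPM after mix150, against 1409, 1771 and 1862 CPM in oil. The oil library at 1409 CPM was replicate 6, which had the highest mitochondrial share. Striatum markers summed to 1568, 1324 and 1698 CPM in the males of lowest share, BPA50 replicate 2, mix50 replicate 4 and mix150 replicate 5. They summed to 916, 582 and 443 CPM in those of highest share, oil replicate 6 and mix50 replicates 3 and 1. The part of the striatum in these slopes was not tested beyond the fits with covariates. Results of those fits for the mitochondrial share are not given here. Without mix50 replicate 4 the count of members called was 2, without mix50 replicate 3 it was 6, and without mix150 replicate 2 it was 17. Nuclear oxidative phosphorylation genes rose along the same slope in 30 of 62 cases, and synaptic vesicle and neuronal marker genes in 15 of 30, while 0 of either list fell.

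In females, 0 of 44 members and 0% of all genes were called on the mitochondrial share, and 2 members reached an unadjusted p under 0.05, against 8.73% of all genes. These were Cntnap1 (0.13 ± 0.053) and Nrxn3 (-0.066 ± 0.030), both with the sign they had in males. Nlgn3 (0.051 ± 0.026) and Ncam1 (0.061 ± 0.031) followed on the positive side, and Cntn5 (-0.072 ± 0.037) and Lrrtm3 (-0.078 ± 0.045) on the negative side. Members with a negative slope in both sexes numbered 21, and with a positive slope in both 14.

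**Figure D4:**
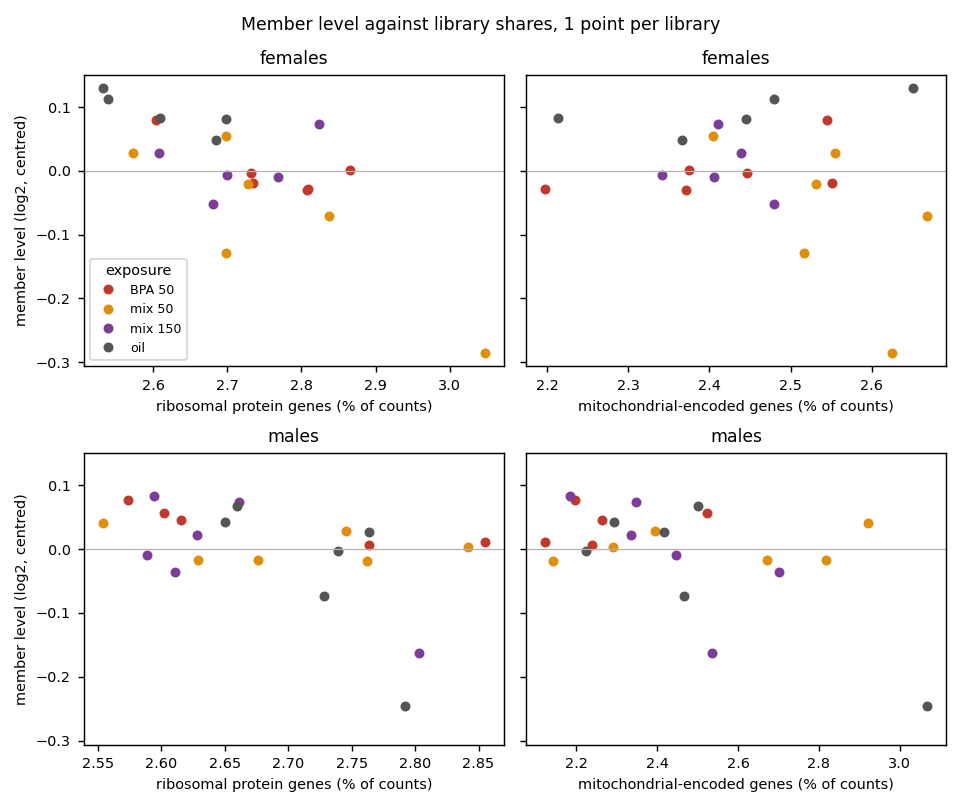
Member level of each library (vertical axis, log2 units centred within sex) against its share of counts in ribosomal protein genes (left, percent) and in mitochondrial-encoded genes (right, percent), females above and males below, coloured by exposure. The library at the right end in females, at 3.05% ribosomal share, is also the lowest at -0.29, and the male library at 3.07% mitochondrial share is the lowest at -0.25.

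**Figure D5:**
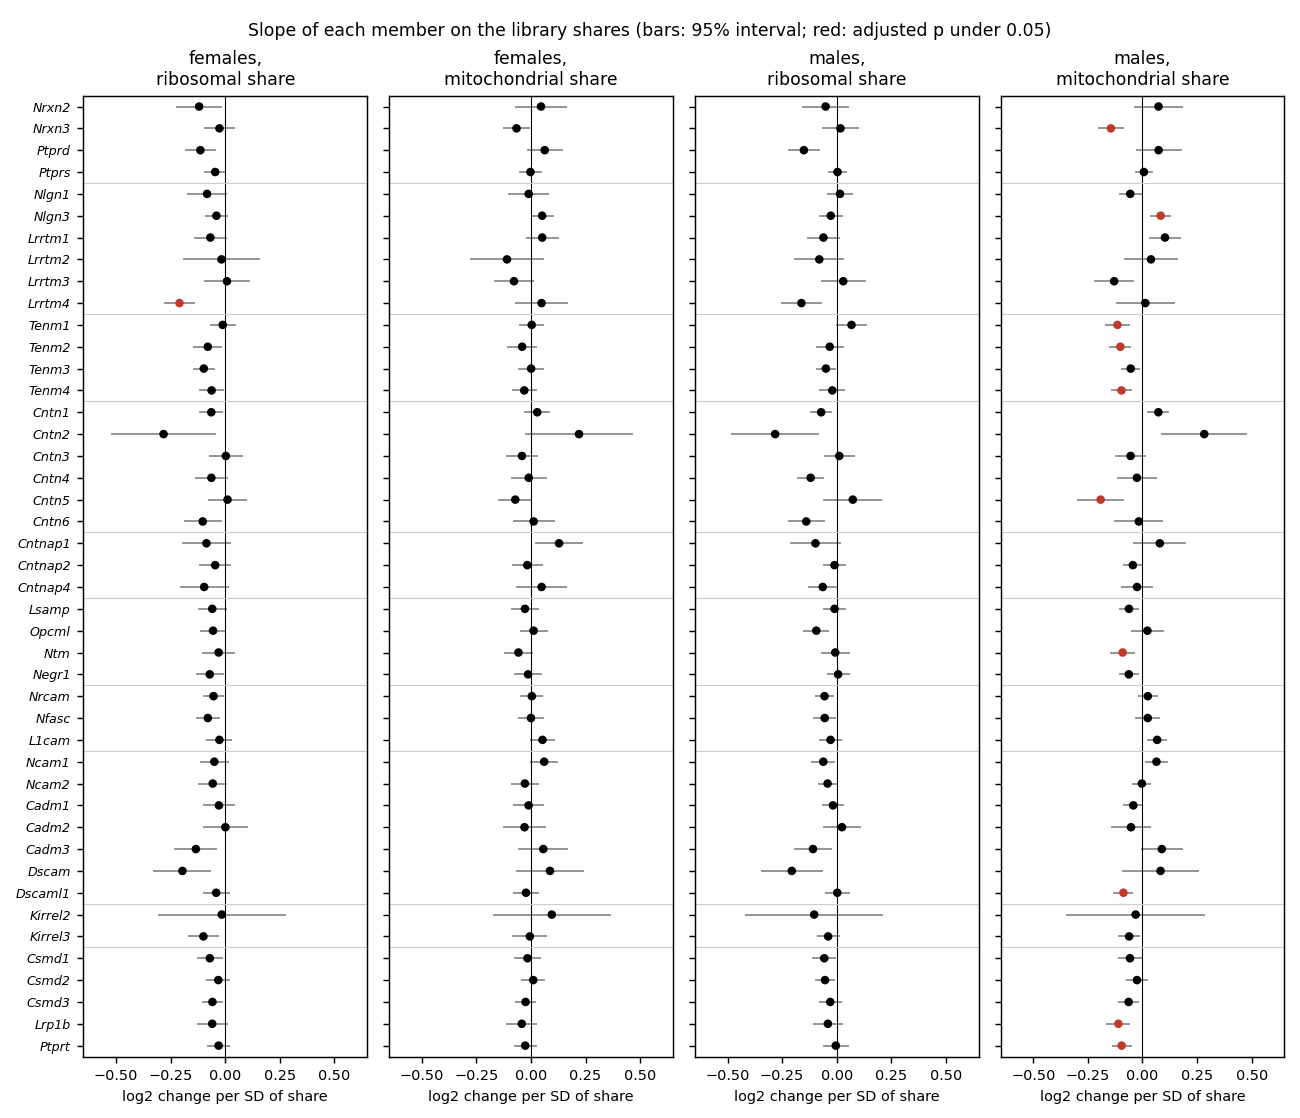
Slope of each of the 44 members on the ribosomal and mitochondrial share in females and males (points, log2 change per SD of the log2 share, with 95% intervals), red where the adjusted p was under 0.05. Red points are Lrrtm4 for the female ribosomal share and 10 members for the male mitochondrial share, 9 to the left of 0 and Nlgn3 to the right.

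Promoters are shown for 3 members that were called on a share: Lrrtm4, called in females, Nlgn3, the member that rose with the mitochondrial share in males, and Tenm4, a teneurin that fell with it. The sequences are from RefSeq, build GRCr8, each 250 bases before to 50 after the gene's start, 5′ to 3′ on the gene's strand, with the CG dinucleotides in capitals. They lie at chr4:114104380-114104679 on the + strand for Lrrtm4, at chrX:70469228-70469527 on the + strand for Nlgn3 and at chr1:159973767-159974066 on the + strand for Tenm4.
Lrrtm4: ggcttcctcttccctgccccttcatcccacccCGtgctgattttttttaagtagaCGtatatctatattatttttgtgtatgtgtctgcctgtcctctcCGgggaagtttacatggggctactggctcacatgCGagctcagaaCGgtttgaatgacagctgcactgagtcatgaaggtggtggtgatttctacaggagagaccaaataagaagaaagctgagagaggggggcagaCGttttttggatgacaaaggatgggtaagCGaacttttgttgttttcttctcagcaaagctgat
Nlgn3: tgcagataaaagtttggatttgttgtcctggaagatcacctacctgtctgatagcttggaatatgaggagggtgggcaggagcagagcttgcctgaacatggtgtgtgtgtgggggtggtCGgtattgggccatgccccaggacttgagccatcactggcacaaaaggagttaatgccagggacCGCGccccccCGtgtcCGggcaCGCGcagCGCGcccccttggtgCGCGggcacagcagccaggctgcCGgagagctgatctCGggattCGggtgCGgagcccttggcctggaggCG
Tenm4: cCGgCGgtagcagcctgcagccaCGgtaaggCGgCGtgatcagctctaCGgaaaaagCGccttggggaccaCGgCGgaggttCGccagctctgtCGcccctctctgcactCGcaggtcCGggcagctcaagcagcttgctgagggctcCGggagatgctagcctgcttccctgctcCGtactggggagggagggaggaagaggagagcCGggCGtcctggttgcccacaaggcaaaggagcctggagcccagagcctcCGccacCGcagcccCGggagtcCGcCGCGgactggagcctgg
The Lrrtm4 promoter holds 7 CG dinucleotides with a GC content of 46.3%, the Nlgn3 promoter 16 with 61.7%, and the Tenm4 promoter 23 with 68.7%. Of the 44 members, 29 matched a promoter by symbol, with a median of 15 CG dinucleotides and 56.3% GC, against 19 and 59.7% over the 13346 promoters of genes tested here. The nuclear receptor half-site AGGTCA, searched on both strands, stood in 2 of the 29, Cntn1 and Lsamp, and in 15.7% of all 27457 promoters. The estrogen-related receptor element TNAAGGTCA, which contains the half-site, stood in 0 of the 29 and in 1.15% of all promoters.

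Maternal care of the litter, recorded as licking and grooming and as nest attendance, was also tested as a slope with exposure in the model. In all 4 fits 0 of 44 members and 0% of all genes were called. At an unadjusted p under 0.05 there were 1 lower member for licking and grooming in females (2.76% of all genes), 4 lower for nest attendance in females (3.16%), 4 higher for licking and grooming in males (4.45%) and 1 lower for nest attendance in males (2.29%). The lowest p were those of Cntnap1 (-0.12 ± 0.046 per SD) and Csmd2 (0.042 ± 0.023) for licking and grooming in females, and of Nfasc (-0.070 ± 0.024) and Lrp1b (-0.068 ± 0.030) for nest attendance in females. In males they were those of Cntnap4, a protein of interneuron synapses (0.082 ± 0.030), and Kirrel3 (0.064 ± 0.024) for licking and grooming, and of Kirrel2 (-0.30 ± 0.14) and Lrrtm2 (0.087 ± 0.055) for nest attendance. Without oil replicate 5 the Kirrel3 slope was 0.041, and without mix50 replicate 6 that of Lrrtm2 was 0.034. All 8 had an edgeR adjusted p of 1.

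The members did not vary as a single block. After group means were taken out, the leading component over members held 38.8% of their variance in females and 45.8% in males. Cntn2, Dscam, Cadm3, Nrxn2 and Lrrtm4 stood at one end in both sexes and Cntn5, Lrrtm3, Cadm2, Cntn3 and Ntm toward the other. Members of 1 family could stand apart, as Cntn2 from Cntn5 and Lrrtm4 from Lrrtm3. These ends are a description of the same libraries and carry no test. Cntn2 was highest of all libraries in mix50 male replicate 3 (63.9 CPM) and lowest in BPA50 male replicate 3 (15.7 CPM). Striatum markers summed to 582 CPM in the first and 1918 CPM in the second. Cntn5 had 495 and 930 CPM in them, and Cadm2 832 and 1183 CPM. The part of the tissue make-up in this component was not tested.

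Among 60 other neuronal adhesion genes, 39 lay below oil after BPA50, 45 after mix50 and 37 after mix150 in females, with medians of -0.045, -0.10 and -0.023. In males 24, 39 and 31 of the 60 lay above oil, with medians of -0.027, 0.052 and 0.0034. Of 30 synaptic vesicle and neuronal marker genes, 25, 19 and 23 lay below oil in females, and 7, 16 and 6 above oil in males, where the medians were -0.16, 0.00095 and -0.077. Of the 79 ribosomal protein genes, 76, 77 and 71 lay above oil in females. None of these genes was called in any of the 6 comparisons.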

How the data were processed

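Tag-seq libraries of 45 pups were analysed from 2 deposited tables of raw counts per gene, 1 for each sex. The submitters' processing notes name the aligner STAR 2.7.3a with the build mRatBN7.2, bedtools 2.27.1, SAMtools 1.10 and cutadapt 1.18. Members and gene lists were chosen with earlier results of these data known. Genes were kept by filterByExpr (minimum count 10, minimum total 15), scaled by TMM and tested with edgeR 4.0.16 in R 4.3.3 on all libraries of a sex, with Benjamini-Hochberg adjustment over all genes and a threshold of 0.05. Log2 CPM used a prior count of 2. DESeq2 1.42.0, limma 3.58.1 and other scalings, filters and covariates were alternatives, and the edgeR fits were tested on simulated data. Shares were compared by exact two-sided permutation tests. Members named are those past the threshold or with the lowest p: 3 per exposure against oil, 1 between exposures, 3 per direction for a share and 2 for a care measure, and the highest and lowest of each role. Replicate numbers do not pair libraries (mean correlation -0.0037 in females and -0.012 in males). Promoters came from RefSeq, build GRCr8.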

Additional observations from a re-analysis of the deposited data

Results flagged for a closer look

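In 7 of 144 groups examined, 1 library lay far from the rest of its group, where chance gives about 1 in 20. Cntnap1 was lowest in mix150 female replicate 2 at 8.18 CPM, with the nearest at 12.4 CPM. Csmd1 was lowest in mix50 female replicate 6 at 608 CPM (nearest 797 CPM), and Ptprt in mix150 female replicate 4 at 388 CPM (nearest 446 CPM). Lrp1b was lowest in oil male replicate 6 at 293 CPM (nearest 375 CPM), the library whose mitochondrial share of 3.07% was far above the next of its group at 2.50%. The ribosomal share of mix150 male replicate 6 was 2.80%, with the nearest at 2.66%. The member level of BPA50 female replicate 6 was 0.080, with the nearest at 0.0015.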

How the results depend on the processing

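The count of members past the adjusted threshold against oil or between exposures was 0 under every alternative run. Counts at an unadjusted p under 0.05 moved. For BPA50 in females (3) they were 1 with both shares, 1 with the ribosomal share, 1 with the replicate block, 6 with only the groups compared, 6 with voom and 10 with the striatum markers. For mix50 in females (17) they were 1 with both shares, 3 with the ribosomal share, 11 with the mitochondrial share, 8 without the low library (chosen after seeing the data) and 12 with the replicate block. For mix150 in females (1) they were 2 without the low library, 4 with only the groups compared and 7 with the striatum markers. In males BPA50 (17) had 10 with both shares and 11 with the mitochondrial share. Mix50 in males (0) had 6 with both shares, 4 with the mitochondrial share, 3 with the striatum markers, 1 with only the groups compared and 1 with voom. Mix150 in males (5) had 1 without the low libraries and 2 with only the groups compared. For these alternatives and the fits with libraries left out, the share of all genes at that p is not given. A rise or fall in their counts is therefore not read as a result about the members.

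Medians against oil in females became -0.014 (BPA50), -0.063 (mix50) and -0.0079 (mix150) with both shares, and -0.015, -0.065 and -0.012 with the ribosomal share. Each of these covariate fits held mix50 female replicate 6. Without the low libraries mix50 had -0.11 in females, mix50 against BPA50 -0.012 in females and mix150 against mix50 0.016 in males. With both shares, mix150 against mix50 had -0.061 and mix50 against BPA50 0.017 in males. Calls on the ribosomal share in females were 2 with both shares, 2 with no filter, 4 with the striatum markers and 0 without the low library, and in males 1 with both shares. Small positive slopes on it turned negative. In females these were Cntn5 (-0.00050 with both shares, -0.024 with the striatum markers), Lrrtm3 (-0.0044 and -0.078) and Cntn3 (-0.0032 and -0.056, -0.00018 with no filter, -0.0024 without the low library). In males they were Cntn5 (-0.038 with the striatum markers) and Lrrtm3 (-0.0048 with both shares, -0.064 with the striatum markers). The cause was not tested.

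Leaving out 1 library at a time, counts at an unadjusted p ranged from 1 to 6, 8 to 21 and 1 to 3 in females and, for mix50 and mix150 in males, from 0 to 2 and 0 to 8. Calls ranged from 0 to 3 on the female ribosomal share and from 2 to 17 on the male mitochondrial share. Medians ranged from -0.17 to -0.11 for mix50 in females, -0.087 to -0.012 for mix50 against BPA50 in females and -0.029 to 0.016 for mix150 against mix50 in males. The female ribosomal slopes ranged from -0.014 to 0.018 for Cntn3, -0.011 to 0.071 for Cntn5 and -0.031 to 0.030 for Lrrtm3. Replicate numbers did not pair the libraries. Depth limits Kirrel2 most, at 3 to 21 counts per library.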
